A study of Mus musculus with 8 samples.

Results

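The genes Stim1, Stim2, Orai1, Orai2 and Orai3 encode the sensors and the pore subunits of the calcium release-activated calcium (CRAC) channel, and their transcripts were measured in 8 RNA-sequencing libraries of mouse regulatory T (Treg) cells. The 5 genes were taken by symbol from a table of 52459 genes, and all 5 were among the 15419 genes that were tested, whose mean over the libraries was 10 normalized counts or more. The study examined gene expression that depends on CRAC channels in Treg cells, by comparing WT cells with cells labelled Stim1/2-deficient, before and after stimulation through the T cell receptor. Each of the 4 groups held 2 libraries. Per the methods, each sample was sorted from the spleen and lymph nodes of several pooled female mice, which were healthy and heterozygous for the Cre allele, and the strain is labelled C57BL/6. The age of the mice is not given in the sources used here.

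All samples are labelled Foxp3+CD25+ Treg cells and were sorted as CD4+CD25hi cells. The genotype of the WT cells is labelled WT, and that of the other cells is Stim1 fl/f and Stim2 fl/fll with Foxp3-YFPcre. By the methods, WT cells were the YFPcre- cells and Stim1/2-deficient cells the YFPcre+ cells of the same females, so WT cells also carried the floxed alleles. Cre was driven by the Foxp3 promoter on the X chromosome, and genotype therefore cannot be told apart from expression of YFPcre. Unstimulated cells received no antibody, and stimulated cells were cultured for 16 h with 1 µg/ml plate-bound anti-CD3/CD28. Unstimulated and stimulated libraries were read on different sequencing lanes, so that stimulation cannot be told apart from lane. The paper describes the unstimulated cells as left untreated, and no group was cultured for 16 h without antibody. Stimulation therefore also cannot be told apart from the 16 h of culture. The replicates of unstimulated WT cells carry the numbers 3 and 4, and those of each other group 1 and 2. The p-values below rest on the spread between libraries within groups, estimated over all 4 groups together and with information shared across genes. The groups were unequal in spread. Between the 2 libraries of a group, chi-square of reads per degree of freedom was 9.96 in unstimulated and 11.6 in stimulated WT cells. It was 68.8 in unstimulated and 33.0 in stimulated labelled cells. The sources do not say which libraries shared mice. Each library is a bulk sample, in which a smaller number of expressing cells and less RNA per cell cannot be told apart.

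Store-operated calcium entry begins when a T cell receptor signal produces inositol trisphosphate, which opens calcium channels in the endoplasmic reticulum. STIM1 and STIM2 are proteins of the reticulum membrane that sense the loss of calcium from its lumen and then bind the plasma membrane proteins ORAI1, ORAI2 and ORAI3, which form the pore of the CRAC channel. The calcium that enters binds calmodulin and activates the phosphatase calcineurin, which allows NFAT transcription factors to enter the nucleus. ORAI1 is the main pore subunit in T cells, and STIM2 responds to smaller losses of calcium than STIM1.

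The libraries held 11851853 to 16306540 reads on genes, and 1 read was worth 0.759 to 1.48 normalized counts. Normalized counts are read counts per gene divided by a size factor for each library. Foxp3, the transcription factor that defines Treg cells, had 4258 to 11918 normalized counts, and all 7 Treg markers examined were detected in each library. Before stimulation, Foxp3 had 10000.5 and 8159 normalized counts in WT and 4947 and 4258 in labelled libraries. The summed level of the 7 markers was then 93568 and 87136.5 in WT and 40591 and 48769 in labelled libraries. After stimulation this sum was 96882 and 115438 in WT and 69853 and 88401 in labelled libraries. The library of unstimulated labelled cells numbered replicate 1 stood apart from the other libraries. Its summed level of 10 genes of macrophages and other myeloid cells was 9998 normalized counts, against 1651 in replicate 2 of its group, 445 and 467 in unstimulated WT libraries and 165 to 443 in stimulated libraries. In both unstimulated WT libraries, 2 of these 10 genes, the complement genes C1qa and C1qc, were at 0 and the others were detected. There the complement gene C1qb had 5 and 3 reads. Itgam had 192 and 167 normalized counts there, against 393 and 111 in replicates 1 and 2 of the unstimulated labelled cells. The same library had a summed level of 3020 normalized counts for 8 B cell genes, against 175 to 1336 in the other libraries. Over all libraries, the summed markers of CD8 T and NK cells were 212 to 894, of erythroid cells 2.28 to 144 and of Treg cells 40591 to 115438 normalized counts. Early response genes of the T cell receptor summed to 9725 to 17162 in unstimulated and 26758 to 33647 in stimulated libraries. Of these genes, Myc, Irf4, Tnfrsf4 and Tnfrsf9 were higher after stimulation in both genotypes. Nr4a1 was lower, from 3802 and 3748 to 737 and 853 in WT and from 2346 and 6720 to 869 and 1759 in labelled libraries. Cd69 went from 2465 and 3216 to 2161 and 2165 in WT and from 4120 and 3388 to 4521 and 6289 in labelled libraries.

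The targeted genes Stim1 and Stim2 were examined first. The normalized counts of Stim1 were 1139 and 1377 in the WT libraries before stimulation, against 1538 and 1868 in the libraries labelled Stim1/2-deficient. After 16 h of stimulation they were 645 and 673 (WT) and 552 and 642 (labelled). The labelled libraries were thus higher than both WT libraries before stimulation and lower than both after it. Stim2 reached 906 and 908 normalized counts in WT and 904 and 744 in labelled libraries before stimulation, and 665 and 782 against 620.2 and 696 after it. The Stim2 values of the stimulated groups overlapped.

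Neither targeted gene was called lower in labelled libraries. The log2 fold change of Stim1 between labelled and WT libraries was 0.44 (95% interval -0.01 to 0.88, limma adjusted p = 0.236) in unstimulated and -0.15 (95% interval -0.59 to 0.30, limma adjusted p = 0.807) in stimulated cells. For Stim2, the interval reached from -0.59 to 0.30 in unstimulated and from -0.58 to 0.31 in stimulated cells on the log2 scale. On a linear scale, the lowest level of Stim2 within the intervals was 0.663 of WT in unstimulated and 0.669 in stimulated cells. The gene counts thus did not show loss of the whole transcript, and the libraries are named by their labels throughout. The paper reports that expression of both genes was lost by RT-PCR in Treg cells of male mice. It also reports that YFP+ Treg cells of heterozygous females lacked store-operated calcium entry. A gene's count sums over all its exons, so it cannot test the deletion of some of them. The floxed exons are not named in the sources used here. In the GENCODE M1 gene models, Stim1 has 12 coding exons within 3597 exon bases, and its internal coding exons of 67 to 236 bases each make up 1.86% to 6.56% of these bases. Stim2 has 13 coding exons within 5109 exon bases, and each internal coding exon makes up 0.470% to 5.36% of them. No stretch of 50 bases was shared between any of the 5 genes with at most 2 mismatches, and the only exonic overlap with another gene was 7 bases of Orai1 with Kdm2b on the opposite strand.

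**Figure D1:**
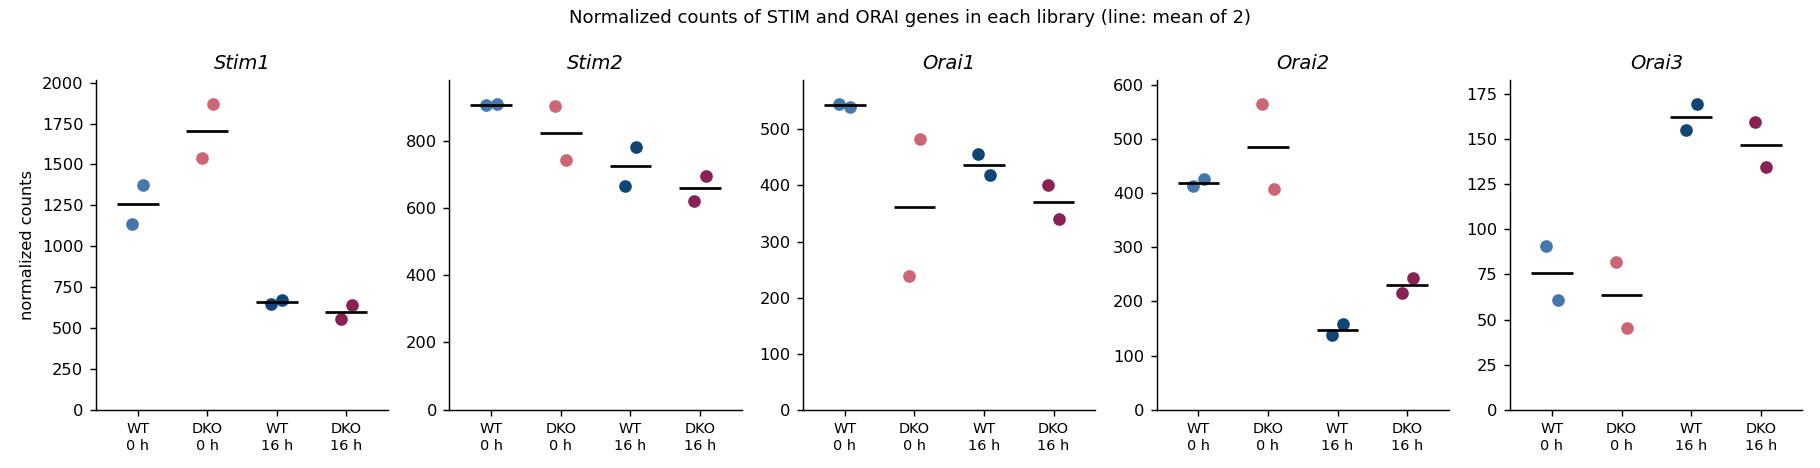
Normalized counts (vertical axes, each from 0) of the 5 genes in each library, by group (horizontal axes: WT or DKO, the libraries labelled Stim1/2-deficient, at 0 h or 16 h of stimulation). Points are libraries and lines are means of 2. Stim1 and Orai2 are lower and Orai3 is higher in all 4 stimulated libraries than in all 4 unstimulated ones.

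The larger differences in these genes went with stimulation. Stim1 and Orai2 were called lower after stimulation in both genotypes, and Orai3 was called higher in labelled cells. The log2 fold change of Orai3 was 1.25 in labelled and 1.12 in WT cells, where it did not pass the test (limma adjusted p = 0.0556). In WT cells 2 of the 5 genes were called, where 23.3% of all tested genes were called. In labelled cells 3 of the 5 were called, where 25.0% of all tested genes were. A call required a Benjamini-Hochberg adjusted p below 0.05 together with a difference above 1.5-fold. Stim2 and Orai1 were called in neither genotype.

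The sequences just upstream of the transcription start are shown for the 3 genes that were called after stimulation. They are 250 bases each, read 5′ to 3′ on the strand of the gene, from RefSeq on GRCm38.p6. The Stim1 window is chr7:102267569-102267818 (plus strand), the Orai2 window chr5:136170657-136170906 (minus strand) and the Orai3 window chr7:127769565-127769814 (plus strand). The Stim1 window lies inside, and the Orai2 window partly inside, the annotated span of its gene, which reaches further upstream. Capitals mark GGAAA on either strand (TTTCC as printed where it lies on the other strand), the core that NFAT proteins bind.
Stim1: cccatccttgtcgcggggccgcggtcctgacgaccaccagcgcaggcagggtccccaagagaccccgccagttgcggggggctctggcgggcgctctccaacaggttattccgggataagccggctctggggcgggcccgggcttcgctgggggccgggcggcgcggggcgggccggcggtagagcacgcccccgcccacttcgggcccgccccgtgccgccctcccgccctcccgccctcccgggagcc
Orai2: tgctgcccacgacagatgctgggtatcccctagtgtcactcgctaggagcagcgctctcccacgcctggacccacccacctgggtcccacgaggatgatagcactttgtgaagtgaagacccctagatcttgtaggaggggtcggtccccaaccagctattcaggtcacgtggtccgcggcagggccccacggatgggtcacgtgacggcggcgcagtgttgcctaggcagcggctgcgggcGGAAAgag
Orai3: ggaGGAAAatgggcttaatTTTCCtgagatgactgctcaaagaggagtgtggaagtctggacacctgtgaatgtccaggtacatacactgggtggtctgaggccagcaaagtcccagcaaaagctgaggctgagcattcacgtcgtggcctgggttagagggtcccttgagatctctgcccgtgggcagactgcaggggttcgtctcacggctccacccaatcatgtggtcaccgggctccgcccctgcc
The Stim1 window held no match to GGAAA, the Orai2 window held 1 match at -8 to -4 from the start and the Orai3 window held 2, at -247 to -243 and, on the opposite strand, at -231 to -227. The windows of Stim2 and Orai1, which were not called, held none. Of 32851 mouse promoter windows of the same length, 55.6% held this motif, and its presence is a description only. The motif TGAGTCA, bound by AP-1, was in none of the 5 windows and in 4.46% of all windows (both strands were searched). The GC content of the windows was 78.4% for Stim1, 74.8% for Stim2, 70.8% for Orai1, 63.6% for Orai2 and 57.2% for Orai3, against a median of 52.4% over all windows. CpG dinucleotides numbered 31 in the Stim1 window, 30 each in the Stim2 and Orai1 windows, 17 in the Orai2 window and 7 in the Orai3 window, where the median over all windows was 6.

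Stim1, the main sensor of store depletion in T cells, lies on GRCm38.p6 at chr7:102261514-102437319. Its counts of 1139 and 1377 in unstimulated WT libraries and 645 and 673 in stimulated WT libraries did not overlap. Stim1 fell with stimulation by 0.93 on the log2 scale in WT cells (SE 0.20, limma adjusted p = 0.0101), to 0.526 of the unstimulated level. In labelled cells, where counts went from 1538 and 1868 to 552 and 642, it fell by 1.51 (SE 0.20, limma adjusted p = 0.00109), to 0.351 of the unstimulated level. Without the unstimulated labelled replicate 1 this log2 fold change was -1.65. The difference between the genotypes in the effect of stimulation on Stim1 was -0.58 on the log2 scale (95% interval -1.21 to 0.05, limma unadjusted p = 0.0668, adjusted p = 0.625). In WT cells the call of Stim1 was lost without WT unstimulated replicate 4, WT stimulated replicate 1 or WT stimulated replicate 2, with log2 fold changes of -0.79, -0.90 and -0.96. It was also lost with the libraries rescaled to equal totals, at -0.41. This rescaling shifted the all-gene median by 0.51 in WT and 0.38 in labelled cells, and relative to that median Stim1 remained at -0.92 in WT cells.

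Stim2, the sensor of smaller losses of store calcium, lies at chr5:53998523-54121057. Stimulated libraries, at 665 and 782 normalized counts in WT and 620.2 and 696 in labelled cells, were below the unstimulated libraries of their own genotype, at 906 and 908 (WT) and 904 and 744 (labelled). Across genotypes the ranges overlapped, at 782 (stimulated WT) against 744 (unstimulated labelled). The log2 fold change with stimulation was -0.33 in WT cells (95% interval -0.78 to 0.11, limma adjusted p = 0.256) and -0.32 in labelled cells (95% interval -0.77 to 0.13, limma adjusted p = 0.264). The second value was -0.18 without unstimulated labelled replicate 1. Both values changed sign when the libraries were rescaled to equal totals, to 0.19 and 0.0701. The medians of all tested genes were then 0.52 in WT and 0.35 in labelled cells.

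The ratio of Stim1 to Stim2 within a library does not depend on the scaling between libraries. It was 1.26 and 1.52 in unstimulated WT libraries, 1.70 and 2.51 in unstimulated labelled libraries, 0.970 and 0.860 in stimulated WT libraries and 0.890 and 0.922 in stimulated labelled libraries. Stim1 counts exceeded Stim2 counts in all 4 unstimulated libraries and were below them in all 4 stimulated libraries. Per kilobase of exon, Stim1 remained above Stim2 in each library, by 1.22 to 1.38 times in stimulated and 1.78 to 3.57 times in unstimulated libraries.

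Orai1, the main pore subunit of T cells, lies at chr5:123015074-123030452. Before stimulation, its normalized counts were 545 and 541 in WT and 238 and 483 in labelled libraries. After stimulation, they were 456 and 418 in WT and 401 and 340.2 in labelled libraries. The unstimulated labelled libraries lay further apart than the libraries of any other group, and the lower value came from replicate 1. The log2 fold change with stimulation was -0.31 in WT cells (95% interval -0.999 to 0.37, limma adjusted p = 0.494) and 0.12 in labelled cells (95% interval -0.56 to 0.81, limma adjusted p = 0.800). In labelled cells it was -0.39 without unstimulated labelled replicate 1 and 0.63 without replicate 2. In WT cells it changed sign to 0.21 with libraries rescaled to equal totals, where the median of all tested genes was 0.52.

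Orai2, a pore subunit that tempers ORAI1 currents in mouse T cells, lies at chr5:136147456-136170697. Counts in WT libraries were 412 and 425 before stimulation and 137 and 158 after it. In labelled libraries they were 564 and 407 before and 216 and 244 after stimulation. The lowest unstimulated library was thus above the highest stimulated library in both genotypes. Orai2 fell by 1.502 on the log2 scale in WT cells (SE 0.25, limma adjusted p = 0.00338), to 0.353 of the unstimulated level, and this call held under all 10 other fits and scalings and without each library in turn. In labelled cells it fell by 1.06 on the log2 scale (SE 0.25, limma adjusted p = 0.0131), to 0.480 of the unstimulated level. That call was lost with rescaling to equal totals (-0.67), in a fit to the 4 libraries of the contrast and without stimulated labelled replicate 1 (-0.97). Without unstimulated labelled replicate 1 the log2 fold change was -0.82 (limma adjusted p = 0.0467).

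Orai3, the third pore subunit, lies at chr7:127769815-127775150. It was the least counted of the 5 genes in all libraries except the stimulated WT libraries, where Orai2 was. WT libraries held 90.7 and 60.6 normalized counts before and 155 and 169 after stimulation. In labelled libraries it had 81.8 and 45.4 before and 160 and 134 after stimulation. All 4 stimulated libraries were above all 4 unstimulated libraries. Orai3 rose in labelled cells by 1.25 on the log2 scale (SE 0.38, limma adjusted p = 0.0353), to 2.38 times the unstimulated level. In WT cells the log2 value was 1.12 (SE 0.38, limma adjusted p = 0.0556), which did not pass the test. It passed under equal totals (1.63) and equal upper quartiles (1.18), and in the fit to 4 libraries and without either unstimulated labelled replicate (1.12 in each). The call in labelled cells held in 8 of 11 other fits and scalings and in 2 of 8 fits with a library left out. Without unstimulated labelled replicate 1 the log2 fold change was 1.67 (limma adjusted p = 0.0151), and without replicate 2 it was 0.83 (limma adjusted p = 0.178).

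**Figure D2:**
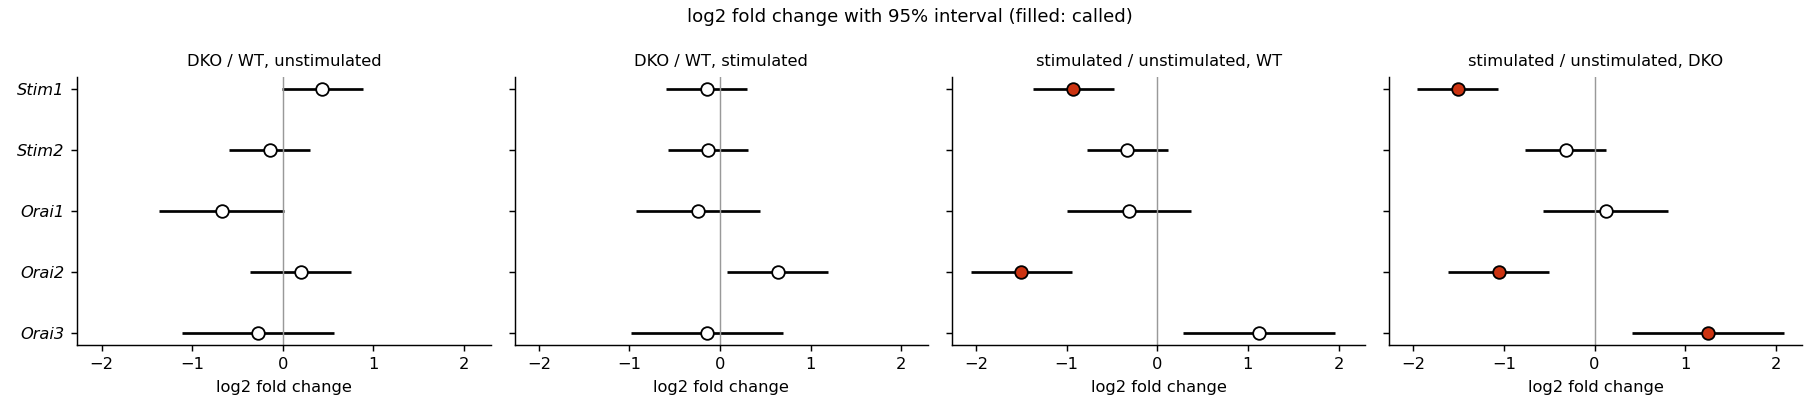
Log2 fold change (horizontal axes) of each gene (vertical axis) between labelled (DKO) and WT libraries and between stimulated and unstimulated libraries, 2 libraries against 2. Bars are 95% intervals from limma and filled points were called. Filled points are Stim1 and Orai2 in both stimulation panels and Orai3 in the labelled cells.

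In both genotypes, the stimulated levels of Orai2 were thus below and those of Orai3 above the unstimulated levels. The ratio of Orai2 to Orai3 counts within a library was 4.55 and 7.02 in unstimulated WT libraries and 6.90 and 8.97 in unstimulated labelled libraries. After stimulation it was 0.884 and 0.933 in WT and 1.35 and 1.82 in labelled libraries. The lowest unstimulated ratio was above the highest stimulated ratio, and after stimulation the labelled libraries were above the WT libraries.

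Shares of the 3 pore genes were computed from counts per kilobase of exon. Orai1 held 61.6% and 63.1% of this sum in unstimulated WT libraries and 64.9% and 60.4% in stimulated WT libraries. In the labelled libraries its share before stimulation was 36.1% in replicate 1 and 62.6% in replicate 2, and after stimulation it was 57.3% and 54.2%. Orai2 held the largest share in a single library, that labelled replicate 1, at 50.6%. In the other unstimulated libraries Orai2 held 27.5% to 31.1%, and in stimulated libraries it held 11.5% and 13.5% (WT) and 18.2% and 23.0% (labelled). The share of Orai3 was 6.28% to 13.3% in unstimulated and 22.9% to 26.1% in stimulated libraries. Orai1 was therefore the leading pore transcript per kilobase in 7 of the 8 libraries, and Orai3 took a larger share than Orai2 in both stimulated WT libraries and in stimulated labelled replicate 1 (24.4% against 18.2%). In stimulated labelled replicate 2 the shares of Orai3 and Orai2 were 22.9% and 23.0%.

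**Figure D3:**
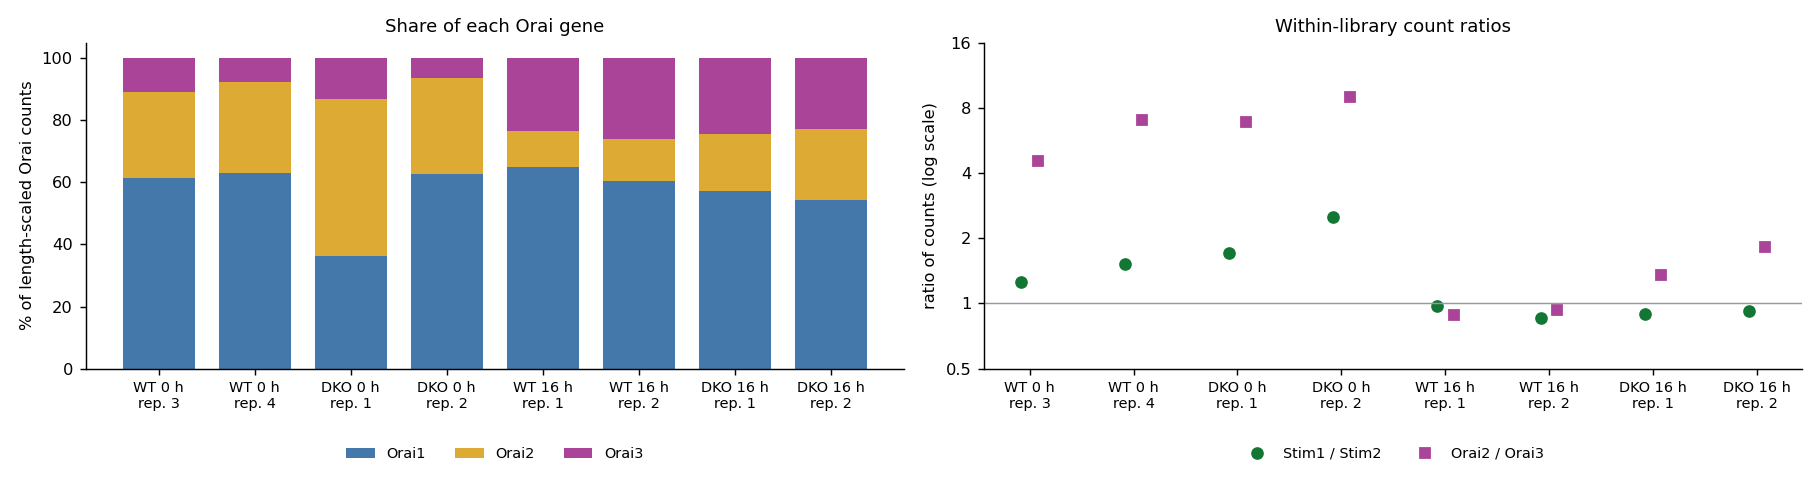
Left, share (%) of each Orai gene in the sum of counts per kilobase of exon of the 3 Orai genes, for each library (bars, WT or DKO, the labelled libraries, at 0 h or 16 h). Right, ratio of Stim1 to Stim2 counts (circles) and of Orai2 to Orai3 counts (squares) on a logarithmic axis. Both ratios are lower in every stimulated library than in every unstimulated one.

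Levels of different genes were compared per kilobase of exon, as group means in normalized counts per kilobase. In unstimulated WT libraries the order was Stim1 at 349.6, Orai1 at 237, Stim2 at 178, Orai2 at 108 and Orai3 at 35.3, and no neighbours in this order overlapped. In unstimulated labelled libraries it was Stim1 at 474, Stim2 at 161, Orai1 at 158, Orai2 at 125 and Orai3 at 29.7. There the range of Orai1 overlapped those of Stim2 and Orai2, which did not overlap each other. In replicate 2 of these libraries Orai1, at 211, was above Stim2, at 146, and in replicate 1 Orai1, at 104, was below Stim2, at 177, and below Orai2, at 146. Stimulated WT libraries had Orai1 at 191 and Stim1 at 183, with overlapping ranges, followed by Stim2 at 142, Orai3 at 75.8 and Orai2 at 38.1. Stimulated labelled libraries had Stim1 at 166 and Orai1 at 162, again overlapping, then Stim2 at 129, Orai3 at 68.6 and Orai2 at 59.4, the last 2 with ranges that overlapped. The summed level of both Stim genes over that of the 3 Orai genes was 1.28 and 1.498 in unstimulated WT libraries, 2.10 and 1.97 in unstimulated labelled libraries, and 0.900 to 1.15 in the 4 stimulated libraries.

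Between labelled and WT libraries, none of the 5 genes was called. This was so in unstimulated cells, where 4.73% of all tested genes were called, in stimulated cells, where 0.272% were, and in the average over both states, where 8.33% were. In the unstimulated cells Orai1 was nearest to the threshold for a lower level, with 545 and 541 normalized counts in WT and 238 and 483 in labelled libraries. Its log2 fold change was -0.68 (95% interval -1.36 to 0.01, limma adjusted p = 0.233). Without labelled replicate 2 it was -1.19 and was called (limma adjusted p = 0.0202), and without labelled replicate 1, which had the highest sums of macrophage and B cell genes, it was -0.17 (limma adjusted p = 0.727). The part of those transcripts in the Orai1 difference was not tested. Without the same replicate, the log2 fold change by genotype in unstimulated cells went from 0.44 to 0.58 for Stim1, from -0.15 to -0.29 for Stim2, from 0.19 to -0.0399 for Orai2 and from -0.28 to -0.69 for Orai3, and none of these was called.

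In stimulated cells the gene with the largest difference by label was Orai2. The labelled libraries, at 216 and 244 normalized counts, were above the WT libraries, at 137 and 158. The log2 fold change was 0.64 (95% interval 0.08 to 1.19, limma unadjusted p = 0.0287, adjusted p = 0.284), which did not pass the test, and leaving out 1 library at a time gave 0.54 to 0.74. The summed level of 10 macrophage and other myeloid genes was 443 and 361 normalized counts in these labelled libraries and 324 and 165 in the WT libraries, and 3 or 4 of these genes were at 0 in each of the 4 libraries, Mrc1 and C1qa in all of them. B cell genes summed to 1336 and 275 in the labelled and 923 and 175 in the WT libraries, and genes of CD8 T and NK cells to 894 and 258 against 455 and 212. The part of these transcripts in the Orai2 difference was not tested. Averaged over both states, the log2 fold change was 0.42 for Orai2 (limma adjusted p = 0.179) and -0.46 for Orai1 (limma adjusted p = 0.227). Without unstimulated labelled replicate 1 these values were 0.30 and -0.20, and without replicate 2 Orai1 was at -0.71 and was called (limma adjusted p = 0.0204). Orai3 had log2 fold changes of -0.28 (95% interval -1.11 to 0.56) in unstimulated and -0.15 (95% interval -0.98 to 0.69) in stimulated cells.

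The effect of stimulation was compared between genotypes by an interaction term, for which 0% of all tested genes were called by limma. At an unadjusted limma p under 0.05 together with a difference above 1.5-fold, 1247 genes differed. DESeq2 on recovered reads called 47 genes and edgeR called 0. Without unstimulated labelled replicate 2, limma called 196 genes, 179 of them higher and 17 lower, and without stimulated labelled replicate 1 it called 1. None of the 5 genes was called by any of the 3 tools. The interaction was 0.01 for Stim2 (95% interval -0.62 to 0.64), 0.44 for Orai1 (95% interval -0.54 to 1.41), 0.44 for Orai2 (95% interval -0.34 to 1.23) and 0.13 for Orai3 (95% interval -1.05 to 1.32) on the log2 scale. The intervals of Stim2 and Orai3 reached beyond 1.5-fold in both directions, and those of Orai1 and Orai2 beyond it in the positive direction.

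The level pattern of each gene over the 8 libraries was compared with that of the 15414 other tested genes by Pearson's r of log2 values, as a description over libraries that share the same 4 groups. Closest to Stim1 were Itpkb, a kinase of inositol trisphosphate (r = 0.990), AC163038.2 (r = 0.989) and 6030400A10Rik (r = 0.988). Stim2 was closest to Xdh, which encodes xanthine dehydrogenase (r = 0.981), Sema4f (r = 0.967) and Ccdc125 (r = 0.967). For Orai1 these genes were Fbxo45 (r = 0.983), Ywhaz (r = 0.974) and Srgn (r = 0.973). AC117245.4 (r = 0.995), the T cell receptor constant gene Trbc1 (r = 0.993) and the kinase gene Map2k6 (r = 0.988) were closest to Orai2. Orai3 was closest to Cyb5b (r = 0.994), the mitochondrial peroxidase gene Prdx3 (r = 0.991) and Ampd2 (r = 0.991). An r above 0.9 was reached by 838 genes for Stim1, 586 for Orai2 and 871 for Orai3, but by 63 for Stim2 and 65 for Orai1. Among the 5 genes themselves, r was 0.86 between Stim1 and Orai2, -0.95 between Stim1 and Orai3 and 0.04 between Stim1 and Orai1.

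Of the 18 names listed as regulators of STIM and ORAI proteins, 13 were tested. Saraf, which promotes inactivation of store-operated entry, fell after stimulation in both genotypes, from 2954 and 3191 to 744 and 764 normalized counts in WT libraries and from 1762 and 3578 to 788 and 1171 in labelled libraries. Its log2 fold changes were -2.02 in WT (limma adjusted p = 0.00245) and -1.39 in labelled cells (limma adjusted p = 0.0103). In labelled cells it was -1.90 without unstimulated replicate 1 and -0.87 without unstimulated replicate 2, and was called in both. Slc35g1, a partner of STIM1, rose from 257 and 248 to 609 and 675 normalized counts in WT libraries and from 301 and 272 to 602 and 759 in labelled libraries, with log2 fold changes of 1.34 (limma adjusted p = 0.00312) and 1.24 (limma adjusted p = 0.00379). These were the 2 list members called in WT cells, 1 in each direction, where 23.3% of all tested genes were called, against 25.0% in labelled cells. In labelled cells 2 were called higher and 4 lower: Sept2, a septin, was the other higher gene, and Asph, Cracr2a and Tespa1 were the other lower genes. Cracr2a, which binds ORAI1 and STIM1, went from 500.2 and 375 to 156 and 248 normalized counts there. The call of Asph held in 5 of 18 alternatives, that of Sept2 in 8 of 19 and that of Cracr2a in 13 of 19. Without unstimulated labelled replicate 1 the log2 fold changes were -1.33 (Asph), 0.42 (Sept2) and -0.93 (Cracr2a). Without replicate 2 they were -1.99, 0.98 and -1.34. The median log2 fold change of the list was -0.00434 in WT and -0.34 in labelled cells. The second value became 0.0298 with equal totals and 0.0201 with quantile normalization, and ranged from -0.53 to -0.14 with libraries left out (-0.15 without unstimulated labelled replicate 1). In labelled cells the median of all tested genes was 0.35 with equal totals and 0.04 with quantile normalization. Tespa1, which links inositol trisphosphate receptors to T cell receptor signalling, was called higher in unstimulated labelled libraries, at 981 and 879 normalized counts against 458 and 536 in WT (log2 fold change 0.91, limma adjusted p = 0.0378), and without labelled replicate 1 its log2 fold change was 0.83 (limma adjusted p = 0.0700). Averaged over both states, Trpc1, a cation channel gene, was called lower in labelled libraries, which had 10.5, 2.67, 11.9 and 0 normalized counts against 86.3, 91.6, 49.9 and 35.7 in WT libraries. The labelled values were 10, 2, 15 and 0 reads, and the log2 fold change was -4.65 with a pseudocount of 0.1 and -2.73 with 5. By genotype, 1.38% of all tested genes were called higher in unstimulated cells, and 5.45% were called lower in the average over both states.

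Among 14 tested genes of store release and refill, stimulation was accompanied by 6 lower and 1 higher calls in WT cells and 8 lower and 1 higher in labelled cells. Over all tested genes, 13.1% were called lower and 10.2% higher in WT cells, and 12.0% lower and 13.0% higher in labelled cells. The list's median log2 fold change was -1.02 in WT and -1.21 in labelled cells, where the medians of all tested genes were 0.01 and -0.03. With the libraries rescaled to equal totals, which moved the median of all tested genes to 0.52 in WT cells, the list median there was -0.50. Called lower in both genotypes were Itpr2, an inositol trisphosphate receptor, Plcg1, the phospholipase that produces inositol trisphosphate, Atp2a3, a pump that refills the store, Atp2b1, a pump that exports calcium, and the ryanodine receptor gene Ryr3. Itpr2 went from 6275 and 6430 to 2933 and 3640 normalized counts in WT libraries (log2 fold change -0.96, limma adjusted p = 0.00811). Plcg1 went from 3499 and 3068 to 1451 and 1510 (log2 fold change -1.15, limma adjusted p = 0.00297). Atp2a2, which encodes another pump that refills the store, rose in both genotypes, from 1901 and 1787 to 3596 and 3390.2 in WT libraries (log2 fold change 0.92, limma adjusted p = 0.00551). The pumps of the reticulum Atp2a2 and Atp2a3 were thus called in opposite directions. Ryr2 was called lower in WT cells, from 121 and 85.7 to 1.56 and 21.3 normalized counts (2 and 28 reads). Atp2b2 (2 and 0 reads after stimulation), Itpr1 and Itpr3 were called lower in labelled cells. None of these genes had a called interaction, and 0% of all tested genes had one. Atp2b4, a pump that exports calcium, was the list member called by genotype: it had 2131 and 2265 normalized counts in unstimulated WT and 439 and 313 in labelled libraries (log2 fold change -2.56, or -2.81 without labelled replicate 1, limma adjusted p = 0.0113 and 0.0144). Stimulated libraries had 1620 and 1463 in WT and 676 and 235 in labelled cells. Over all tested genes, 3.35% were called lower by genotype in unstimulated cells.

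In the calcineurin and NFAT list, 18 of 19 genes were tested. Ppp3ca, a catalytic subunit of calcineurin, fell from 1634 and 1557 to 577 and 524 normalized counts in WT libraries and from 1618 and 1953 to 618 and 1075 in labelled libraries, by log2 fold changes of -1.54 (limma adjusted p = 0.00338) and -1.12 (limma adjusted p = 0.0112). Nfatc3, an NFAT factor, Calm2, a calmodulin gene, and Dyrk1a, a kinase that primes NFAT for export from the nucleus, were also called lower in both genotypes, but Dyrk1a not in labelled cells without unstimulated labelled replicate 2. Rcan3, a modulator of calcineurin, rose in both, with log2 fold changes of 1.34 (limma adjusted p = 0.0154) and 1.65 (limma adjusted p = 0.00585). Homer2 was the remaining gene called in WT cells, with 21.6 and 39.9 normalized counts before and 0.78 and 2.28 (1 and 3 reads) after stimulation. At such low counts its log2 fold change depended on the pseudocount, at -4.35 with 0.1 and -2.41 with 5. Calm3 was called higher after stimulation in labelled cells, a call that held in 14 of 19 alternatives. Its log2 fold change there was 0.96 without unstimulated labelled replicate 1 and 0.70 without replicate 2. The calls numbered 1 higher and 5 lower in WT and 2 higher and 4 lower in labelled cells, beside 23.3% and 25.0% of all tested genes called in either direction. The median log2 fold changes of the list, -0.21 and -0.08, changed sign with equal totals, to 0.31 and 0.29. The medians of all tested genes were then 0.52 and 0.35. By genotype, Calm3 and Nfatc1 were called lower in unstimulated labelled libraries, where 3.35% of all tested genes were called lower. Calm3 had 824 and 588 against 341 and 283 normalized counts (log2 fold change -1.16, or -1.30 without labelled replicate 1, limma adjusted p = 0.0246 and 0.0217), and Nfatc1 had 2499 and 2380 against 1418 and 1388 (log2 fold change -0.80, limma adjusted p = 0.0480). The call of Nfatc1 held in 5 of 18 alternatives and was lost without either labelled replicate (limma adjusted p = 0.0601 without replicate 1). The calmodulin genes encode the same protein, and reads they may share were not separated here. No gene of the 3 lists was called by genotype in stimulated cells or in the interaction, where 0.272% and 0% of all tested genes were called.

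**Figure D4:**
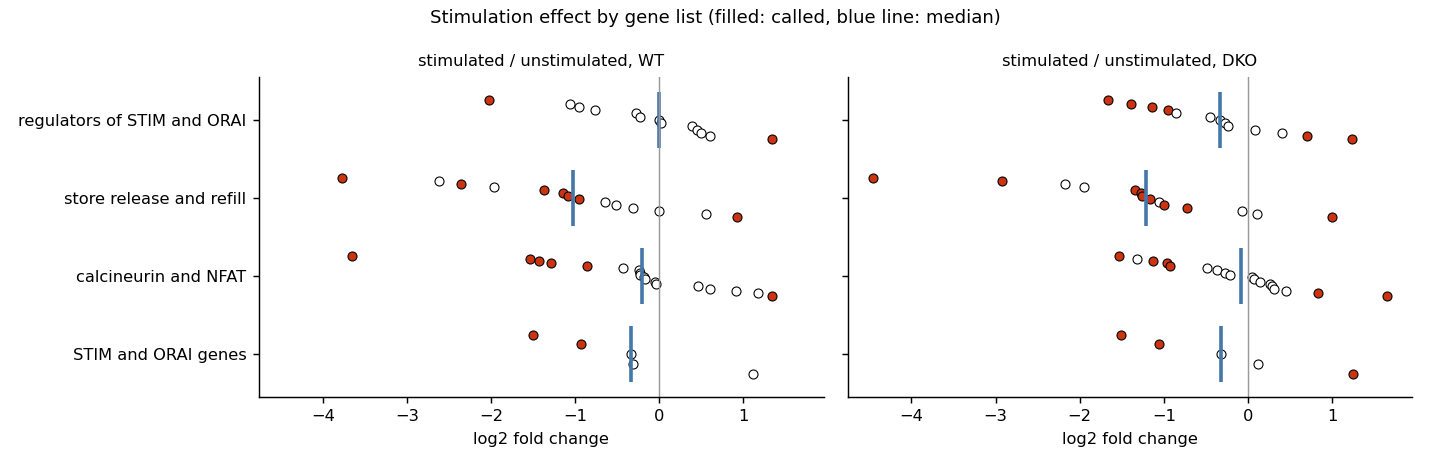
Log2 fold change with stimulation (horizontal axes) of each tested gene of 3 pathway lists and of the 5 STIM and ORAI genes (rows), in WT and in labelled (DKO) cells. Filled points were called and blue lines are list medians. The store release and refill list has the lowest median in both panels, -1.02 in WT and -1.21 in labelled cells.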

How the data were processed

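RNA of 8 libraries was analysed. Per the labels, polyA RNA was sequenced. Per the methods, the authors aligned reads to NCBIM37 with Bowtie 1.0.0, removed duplicates with Picard and counted reads per gene with HTSeq. The submitters' processing notes name mm10, STAR 2.7, bcl2fastq 1.8.4 and DESeq2 instead, and the labels a stranded kit where the methods name another. Which applies was not settled. The deposited signal values are counts that the authors divided by a size factor per library. Whole reads were recovered from 100% of values (tolerance 0.006 normalized counts). Of 52459 symbols, 28801 matched GENCODE M1 on NCBIM37, used for exon lengths, and 35095 matched RefSeq on GRCm38.p6, used for positions and promoters.

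After adding a pseudocount of 1, log2 values of all genes whose mean was 10 or more were fitted in limma 3.58.1 (R 4.3.3, eBayes with a trend) over the 4 groups. Tests were 2-sided, with Benjamini-Hochberg adjustment within each contrast, and calls required both an adjusted p below 0.05 and a difference above 1.5-fold. Intervals cover 95%. The methods' DESeq2 (1.42.0) and edgeR 4.0.16, on recovered reads, were alternatives, because the deposited values are not counts, beside pseudocounts of 0.1 and 5, other filters and scalings, fits to 4 libraries, a replicate block and each library left out. The limma fit was tested on simulated data. The named genes are the 5 members, the 3 most like genes of each and every called gene of the pathway lists. Members, lists and markers were chosen with earlier results of these data known.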

Additional observations from a re-analysis of the deposited data

How the results depend on the processing

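The lowest value of the 5 genes was 45.4 normalized counts, where 3 reads were worth 2.28 to 4.43, and each group held 2 libraries. Without each library in turn, 0 to 1 of the 5 genes were called by genotype in unstimulated cells and averaged over both states (Orai1, without labelled unstimulated replicate 2), 1 to 3 with stimulation in WT cells and 1 to 3 in labelled cells. The fit to the 4 libraries of the contrast called 1 gene, Stim1, with stimulation in labelled cells and 3, Orai3 among them, in WT cells. Of the repeated log2 fold changes of the 5 genes, 496 kept direction and side of the threshold, 16 lost their call, 7 gained one and 21 changed sign. The causes were not tested.

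The sign changes were all in values that were not called. In unstimulated cells, Stim2 by genotype became 0.0166 with equal upper quartiles and 0.0102 with quantile normalization. With a library left out, Orai3 by genotype ranged from -0.69 to 0.14 and Orai2 from -0.0399 to 0.43. With equal totals, the stimulation effect became 0.19 (Stim2) and 0.21 (Orai1) in WT cells and 0.0701 (Stim2) in labelled cells, where Orai1 ranged from -0.39 to 0.63 with a library left out. Equal totals moved the median of all tested genes to 0.52 in WT and 0.35 in labelled cells. The interaction of Stim2 became -0.12 with equal totals, -0.14 with equal upper quartiles, -0.16 with quantile normalization, -0.0129 with edgeR and -0.0123 with DESeq2. That of Orai3 became -0.0201 with equal upper quartiles. With a library left out, the interaction ranged from -0.13 to 0.15 for Stim2, from -0.29 to 0.55 for Orai3 and from -0.0744 to 0.94 for Orai1.

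The replicate block could be fitted where groups share numbers. Deviations of same-numbered libraries correlated at 0.17 between the stimulated groups, 0.26 between the labelled groups and 0.11 between stimulated WT and unstimulated labelled cells. In each of these 3 groups, replicate 1 had the higher sum of B cell, myeloid, CD8 T and NK, and erythroid markers. With 2 pairs each and no label tying a number to mice or a day, the numbers were not taken as pairing. Whether equal numbers mark a shared source was not tested. The block was added to the fit to the 4 libraries of the contrast. With the block, 0 of the 5 genes were called by genotype in stimulated cells. Calls over all genes were 393 there, against 1 in the same fit without the block and 42 in the fit to all 8 libraries. With stimulation in labelled cells, 3 of the 5 genes were called with the block, against 1 in the same fit without it. Over all genes, the block there gave 1870 higher and 2224 lower calls, against 880 and 872 without it. All-gene counts by genotype ranged over other settings from 338 to 1321 in unstimulated cells (libraries left out, 8 to 1298) and from 1 to 525 in stimulated cells (libraries left out, 0 to 762), and by stimulation from 2828 to 5232 in WT (libraries left out, 971 to 4276, the lowest without unstimulated WT replicate 4) and 1752 to 4868 in labelled cells (2599 to 4229).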
